A study of Bos taurus with 8 samples.

Results

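The neutrophil granule genes were described in the liver of fetal calves from cows on a low or a high plane of nutrition. The set named 10 genes: *MPO*, *ELANE*, *AZU1*, *PRTN3* and *BPI* of the primary granules, *LTF*, *LCN2* and *PGLYRP1* of the secondary granules, and *S100A8* and *S100A9*, the subunits of calprotectin. Members were the array probes whose RefSeq accession belongs to one of these genes. This gave 14 probes for 7 of the 10 genes, among 43637 probes normalized and 12603 genes with a matched accession in all. No probe was matched to *AZU1*, *PRTN3* or *LCN2*, which were therefore not analysed here. The genes were chosen by function with their log2 differences between low and high nutrition on these same arrays in view, so those differences are given as a description and without a test.

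Japanese Black cows carried the fetuses on diets that met 60% (LN) or 120% (HN) of requirement through gestation, and fetal liver was taken at 8.5 months after conception. Each of 8 Agilent bovine 1-colour arrays held the RNA of 1 fetus, L5, L6, L8 and L9 in the LN group and L1, L2, L3 and L10 in the HN group. All dams were inseminated with semen of a single sire sorted for males, and the arrays took LN fetuses of low and HN fetuses of high body weight, so diet and body weight were chosen together. No group was fed exactly to requirement. All fetuses were killed by exsanguination. The 4 LN arrays lay on one slide and the 4 HN arrays on another, each scanned separately, so slide, scan and diet cannot be told apart in any value below.

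Neutrophils carry antimicrobial proteins in granules that are filled one kind after another while the cell matures in a blood-forming tissue. Genes of the primary granules, among them myeloperoxidase and the serine proteases, are transcribed mainly in promyelocytes, and genes of the secondary granules mainly in the later myelocytes and metamyelocytes. Calprotectin lies in the cytosol and is abundant in mature neutrophils and in monocytes. The liver is a main site of blood formation in the fetus before the marrow takes over, and late in gestation it may still hold some blood-forming cells beside hepatocytes and blood.

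All values are log2 intensities after quantile normalization, with the brightest detected probe standing for a gene, and a probe counted as detected if 4 or more of the 8 arrays had it well above background. Of 43803 spots on an array, 32635 to 33371 were well above background in LN and 33254 to 34369 in HN, and none was saturated. Of the 14 member probes, 13 were detected. The exception was a dim *LTF* probe, well above background on 3 of 8 arrays. In the limma fit over all 33439 detected probes, 0 passed an adjusted p of 0.05 (0% of probes), 2113 had an unadjusted p below it (6.32%), and the lowest adjusted p was 0.634. The difference between the diets had a median of 0.0075 over 10860 detected genes.

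Of the 7 genes measured, 5 had a higher mean in LN (*MPO*, *ELANE*, *PGLYRP1*, *S100A8* and *S100A9*) and 2 a lower one (*BPI* and *LTF*), where 51.6% of all detected genes were higher in LN. The LN and HN fetuses did not overlap for *MPO* and *ELANE*, both higher in LN, where 2.59% of all detected genes lay wholly higher in LN and 4.14% did not overlap in either direction. The mean was at least 2-fold higher in LN for *MPO* and *PGLYRP1*, against 0.617% of all detected genes. By probe, 9 of 13 were higher in LN, and the 3 probes of *MPO* and *ELANE* had no overlap, where 4.13% of all detected probes had none. These shares are given beside counts that the choice of genes had already used. In whole liver, fewer cells of a type and less RNA per cell cannot be told apart.

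**Figure D1:**
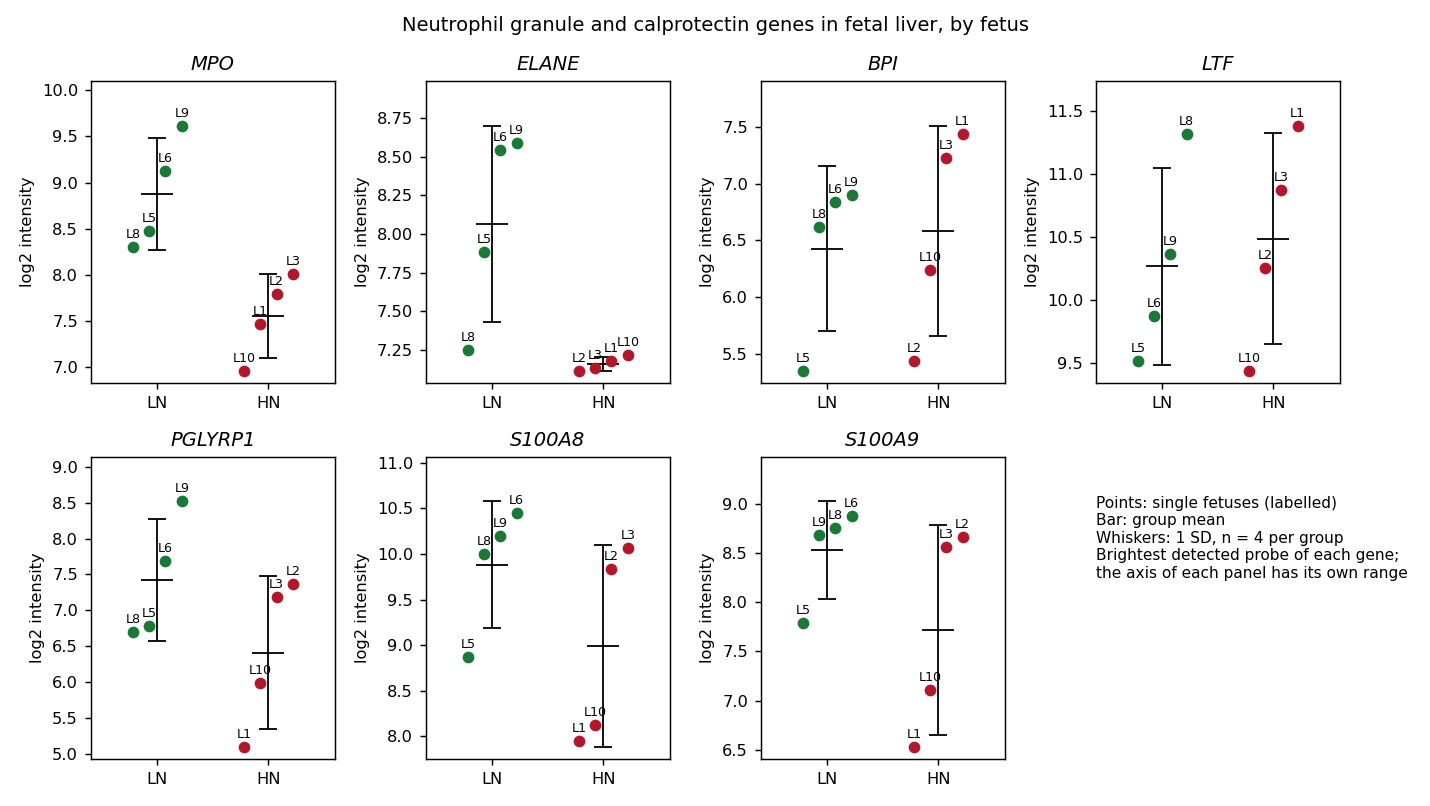
Log2 intensity of the 7 measured genes in each fetus, with 1 panel per gene, LN and HN on the horizontal axis, 1 point per fetus, and the group mean with whiskers of 1 SD (n = 4 per group). The LN points lie wholly above the HN points for *MPO* and *ELANE*, and the groups overlap for *BPI*, *LTF*, *PGLYRP1*, *S100A8* and *S100A9*.

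Among the primary granule genes, *MPO* encodes myeloperoxidase, the haem enzyme that makes hypochlorous acid inside the phagosome. Its probe (NM_001113298) read 8.48 in L5, 9.12 in L6, 8.30 in L8 and 9.62 in L9, against 7.46 in L1, 7.79 in L2, 8.01 in L3 and 6.96 in L10. Every LN fetus was above every HN fetus, with L9 the highest and L10 the lowest. The means were 8.88 ± 0.61 in LN and 7.55 ± 0.46 in HN (SD, n = 4 each), a log2 difference of 1.32 (SE 0.33) or 2.50-fold. The groups stayed apart in all 15 settings computed, but most of these left out a fetus or left the values unchanged and could hardly bring an overlap. Scaling to the 75th percentile (difference 1.27) and normexp background correction (1.12), which do change the values, kept the groups apart. The difference ran from 1.08 without L9 to 1.51 without L8.

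*ELANE* encodes neutrophil elastase, a serine protease stored beside myeloperoxidase. Its brighter probe (NM_001105653) read 7.88 in L5, 8.55 in L6, 7.25 in L8 and 8.59 in L9, against 7.17, 7.11, 7.13 and 7.22 in L1, L2, L3 and L10. The HN fetuses lay almost level, over a span of 0.10, and L8 of the LN group was only just above them, whereas L6 and L9 stood well clear. The means were 8.07 ± 0.64 in LN and 7.16 ± 0.045 in HN (SD, n = 4 each), a difference of 0.91 (SE 0.28) or 1.88-fold. The other *ELANE* probe gave a difference of 1.11 (SE 0.29), with an equally narrow HN group (SD 0.040) and no overlap. The groups overlapped under scaling to the 75th percentile and under normexp background correction. They stayed apart in 13 of 15 settings, of which one was the mean over both probes. Most of these 13 left out a fetus or left the values of the probe unchanged, so they could hardly bring an overlap.

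*ELANE* lies in a run of serine protease genes, next to *PRTN3*, which is next to *AZU1*, in the ARS-UCD2.0 assembly. *PRTN3* encodes proteinase 3 and *AZU1* azurocidin, a relative that lacks protease activity. *MPO* lies next to *LPO*, which encodes lactoperoxidase.

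*BPI* encodes the bactericidal/permeability-increasing protein, which binds lipopolysaccharide of Gram-negative bacteria. Its brighter probe (NM_173895) read 5.35 in L5, 6.83 in L6, 6.62 in L8 and 6.90 in L9, and 7.44 in L1, 5.44 in L2, 7.22 in L3 and 6.24 in L10. The groups overlapped almost fully, with the highest values in L1 and L3 of HN and the lowest in L5 of LN and L2 of HN. The means were 6.43 ± 0.73 in LN and 6.58 ± 0.92 in HN (SD, n = 4 each), a difference of -0.16 (SE 0.49). Its sign turned when L5, L1 or L3 was left out, to 0.20, 0.13 and 0.055, and the dimmer probe, well above background on 4 of 8 arrays, gave 0.029. *BPI* lies next to *LBP*, a relative made by hepatocytes that carries lipopolysaccharide in plasma.

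Among the secondary granule genes, *LTF* encodes lactoferrin, an iron-binding protein that glandular epithelia make as well. Its brightest probe (NM_180998) read 9.51 in L5, 9.88 in L6, 11.31 in L8 and 10.36 in L9, and 11.38 in L1, 10.25 in L2, 10.87 in L3 and 9.44 in L10. High and low fetuses were found in both groups, with L1 and L8 at the top and L10 and L5 at the bottom. The means were 10.27 ± 0.78 in LN and 10.48 ± 0.84 in HN (SD, n = 4 each), a difference of -0.22 (SE 0.48), which turned to 0.032 without L5 and to 0.080 without L1. The other detected probes of *LTF* gave -0.24, -0.34 and 0.046.

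*PGLYRP1* encodes a peptidoglycan recognition protein that kills bacteria, and in cattle it is also known from the large granules of neutrophils. Its brighter probe (NM_174573) read 6.79 in L5, 7.68 in L6, 6.70 in L8 and 8.52 in L9, against 5.10 in L1, 7.36 in L2, 7.19 in L3 and 5.99 in L10. L9 and L6 were the highest and L1 and L10 the lowest, but L2 and L3 of HN were above L5 and L8 of LN. The means were 7.42 ± 0.86 in LN and 6.41 ± 1.07 in HN (SD, n = 4 each), a difference of 1.01 (SE 0.57) or 2.02-fold, and the dimmer probe gave 1.11. The difference fell to 0.58 without L1, to 0.65 without L9 and to 0.65 under normexp background correction.

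*S100A8* and *S100A9* encode the calcium-binding subunits that pair as calprotectin and withhold zinc and manganese from microbes. *S100A8* (NM_001113725) read 8.87 in L5, 10.45 in L6, 10.0001 in L8 and 10.20 in L9, against 7.95 in L1, 9.83 in L2, 10.06 in L3 and 8.13 in L10. L1 and L10 of the HN group were the lowest, and L2 and L3 of the same group lay among the LN fetuses. The means were 9.88 ± 0.70 in LN and 8.99 ± 1.11 in HN (SD, n = 4 each), a difference of 0.89 (SE 0.55) or 1.85-fold, and 0.54 without L1.

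*S100A9* (NM_001046328) read 7.79 in L5, 8.88 in L6, 8.75 in L8 and 8.68 in L9, against 6.53 in L1, 8.66 in L2, 8.56 in L3 and 7.11 in L10. The order of the fetuses was nearly that of *S100A8*, with L6 the highest and L1 the lowest. The means were 8.53 ± 0.50 in LN and 7.72 ± 1.06 in HN (SD, n = 4 each), a difference of 0.81 (SE 0.49) or 1.75-fold, and 0.42 without L1. In the ARS-UCD2.0 assembly *S100A12*, which encodes another calgranulin, lies between *S100A8* and *S100A9*.

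**Figure D2:**
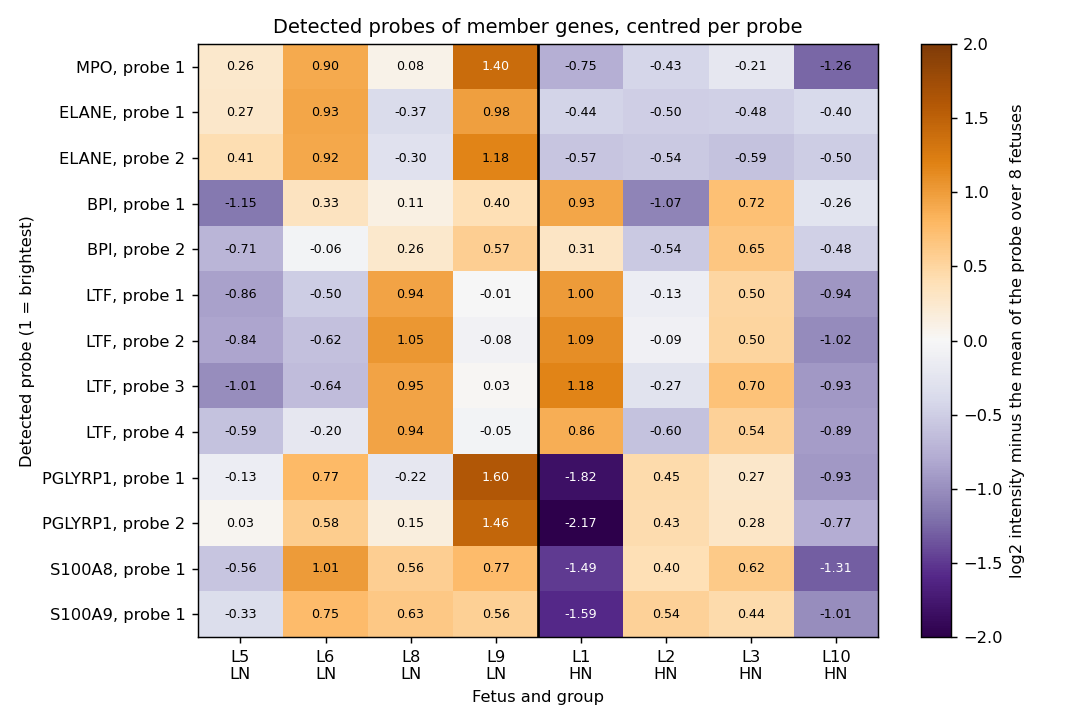
Log2 intensity of the 13 detected member probes (vertical axis, probe 1 of each gene the brightest) in each fetus (horizontal axis, LN to the left of the black line), minus the mean of that probe over the 8 fetuses. Probes of the same gene share their pattern, the HN fetuses are all below 0 for *MPO* and *ELANE*, and L1 and L8 are high for *LTF*.

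The genes varied more between fetuses of one group than most genes on the array. The SD within groups was 0.97 for *PGLYRP1*, 0.93 for *S100A8*, 0.83 for *S100A9*, 0.83 for *BPI*, 0.81 for *LTF*, 0.54 for *MPO* and 0.45 for *ELANE*, where the median over detected genes was 0.23. *ELANE*, the steadiest of them, still exceeded 84.8% of detected genes, and *PGLYRP1* 97.8%. Different probes of one gene followed each other closely across fetuses. The correlation of their deviations from the group means was 0.99 for *ELANE*, 0.97 for *PGLYRP1* and 0.89 for *BPI*, and from 0.959 to 0.997 over the pairs of detected *LTF* probes (n = 8 fetuses).

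To set primary against secondary granule genes, each gene was centred on its mean over the 8 fetuses and averaged within its class in each fetus. The primary mean was -0.21 in L5, 0.72 in L6, -0.057 in L8 and 0.92 in L9, against -0.087 in L1, -0.66 in L2, 0.0081 in L3 and -0.64 in L10. The secondary mean was -0.49, 0.13, 0.36 and 0.80 in the same LN fetuses, against -0.41, 0.16, 0.39 and -0.93 in the HN fetuses. L9 was the highest fetus for each class, and the groups overlapped for each.

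The primary minus secondary score was 0.29 in L5, 0.59 in L6, -0.42 in L8 and 0.13 in L9, against 0.32 in L1, -0.82 in L2, -0.38 in L3 and 0.29 in L10. Its mean was 0.15 ± 0.42 in LN and -0.15 ± 0.55 in HN (SD, n = 4 each), a difference of 0.29 that was smaller than the spread between fetuses of either group. Leaving out a fetus moved this difference between 0.070 (without L2) and 0.48 (without L8), and it was 0.15 without L6 and 0.45 without L1. Adding *S100A8* and *S100A9* to the secondary genes made it 0.069.

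The median difference over the genes of a class was 0.91 for the 3 primary genes, 0.40 for the 2 secondary genes and 0.85 for the 2 calprotectin genes, beside 0.0075 over all detected genes. The secondary median lay between *PGLYRP1* and *LTF*, which differed in sign, and the primary genes were likewise split between *BPI* and the other two. The secondary median was 0.62 without L5, 0.20 without L9, 0.15 without L10 and 0.21 under normexp background correction. The primary and the secondary class thus each held a gene without a settled direction, *BPI* and *LTF*. Their differences turned sign when some single fetuses were left out.

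**Figure D3:**
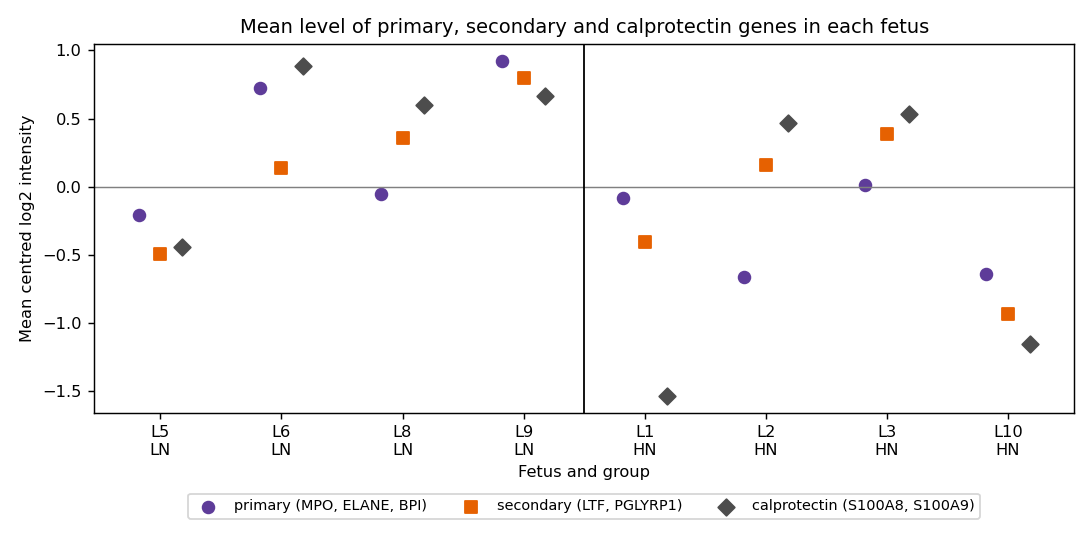
Mean centred log2 intensity (vertical axis) of the primary, secondary and calprotectin genes in each fetus (horizontal axis, LN to the left of the line). L9 is the highest fetus for the primary and the secondary genes, and calprotectin is lowest in L1 (-1.54) and L10 (-1.16) of the HN group.

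With the group means removed, some of the highest correlations between genes across fetuses crossed the classes. Correlations below are Pearson's r of deviations from the group means over 8 fetuses, given as a description, since all genes of a fetus share an array and its RNA. *S100A8* and *S100A9* had the highest r of the pairs of genes, 0.97, which stayed between 0.97 and 0.98 when each fetus was left out. Other pairs moved more, from 0.52 to 0.84 for *MPO* and *ELANE*, 0.50 to 0.72 for *BPI* and *LTF*, 0.71 to 0.98 for *MPO* and *PGLYRP1* and 0.74 to 0.90 for *PGLYRP1* and *S100A8*. *PGLYRP1* had an r of 0.82 with *S100A8* and of 0.82 with *S100A9*, but -0.20 with *LTF*, the other secondary granule gene.

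*MPO* had an r of 0.80 with *PGLYRP1*, 0.67 with *S100A8* and 0.69 with *ELANE*. The *MPO* and *ELANE* pair rested on the LN fetuses, with an r of 0.91 within LN and -0.93 within HN, where *ELANE* hardly varied. *BPI* had an r of 0.63 with *LTF*, above its r of 0.34 with *MPO* and 0.23 with *ELANE*. *ELANE* and *LTF* had the lowest r, -0.41. Averaged in each fetus, *BPI* and *LTF* differed between the diets by -0.19, *S100A8*, *S100A9* and *PGLYRP1* by 0.90, and *MPO* and *ELANE* by 1.12, and these averages were formed after the values were seen.

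**Figure D4:**
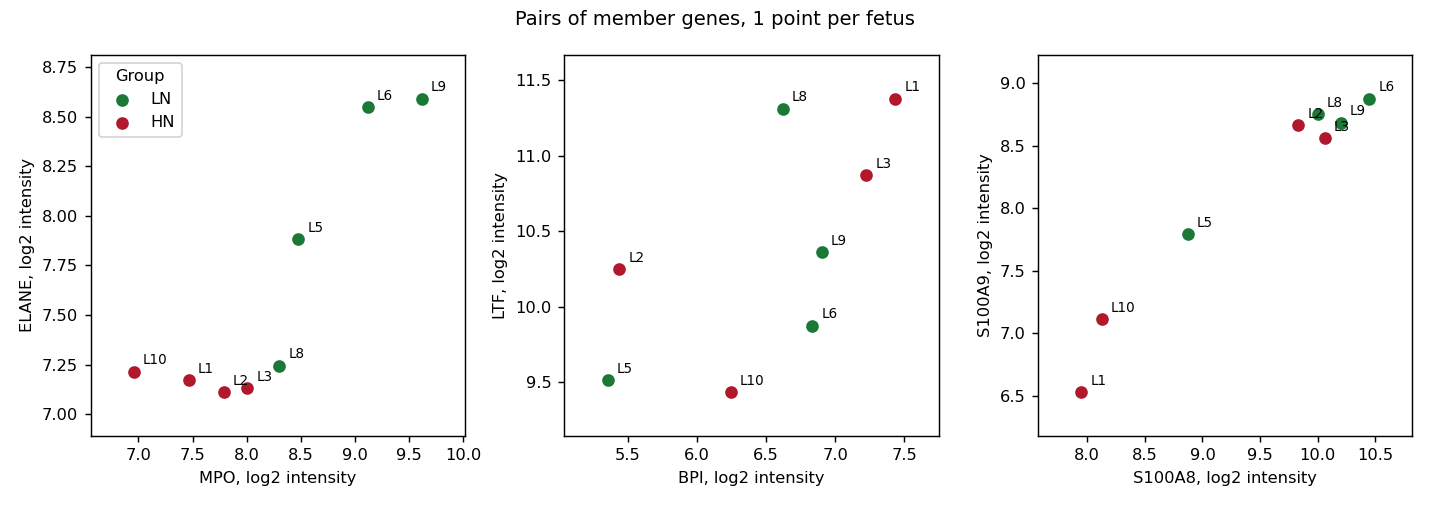
Log2 intensity of *ELANE* against *MPO*, *LTF* against *BPI*, and *S100A9* against *S100A8*, with 1 point per fetus coloured by group. *ELANE* is flat over the HN fetuses and rises with *MPO* over the LN fetuses, the groups mix for *BPI* and *LTF*, and *S100A8* and *S100A9* lie along a line with L1 and L10 at its low end.

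Over 5423 genes with an SD at or above the median, the 5 closest to the mean of the primary genes were *CRIM1* (r 0.99), *GRB2* (0.99), *PRLR* (0.98), *TC2N* (0.98) and *MAPK14* (0.97). Those closest to the secondary mean were *RBSN* (0.98), *RIIAD1* (0.95), *ENO2* (0.95), *CTNNA3* (0.93) and *TBC1D17* (0.90). Against single members, the share of detected genes with an r of at least 0.9 ran from 0.147% for *S100A9* to 0.589% for *ELANE*, with 0.488% for *MPO*, 0.221% for *PGLYRP1* and 0.157% for *S100A8*. Genes close to single members were listed after the values were seen. The closest were *PAK5* (0.98) and *HTR4* (0.97) to *MPO*, *TIMP4* (0.98) and *MYOZ2* (0.97) to *ELANE*, *OSBP* (0.96) and *PTPRF* (0.94) to *BPI*, and *F3* (0.96) and *DNAJB5* (0.94) to *LTF*. For *S100A8* they were *TNFAIP6* (0.96), *S100A12* (0.95), haptoglobin *HP* (0.95), *PADI4* (0.94) and *TCN1* (0.94), and *S100A12*, *HP*, *TNFAIP6* and *TCN1* were also among the 5 closest to *S100A9*. For *PGLYRP1* they were the beta-defensin genes *DEFB10*, *DEFB7* and *EBD* (0.98 each), *SHOX2* (0.96) and the cathelicidin *CATHL6* (0.96).

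The other genes of neutrophil granules came from lists drawn up by known function, with earlier results of these arrays known. The 7 cathelicidins, precursors of antimicrobial peptides that bovine neutrophils store in their large granules, all had a higher mean in LN, with a median difference of 1.33. No list gene passed an adjusted p of 0.05 in the limma fit. An unadjusted p below it was found for 4 of the 7 cathelicidins and for 3.3% of detected genes in that direction, a count that the choice of the list may have set and that is no independent evidence. *CATHL4* differed by 1.78 (SE 0.54) with no overlap, *CAMP* by 1.45 (SE 0.49), *CATHL3* by 1.39 (SE 0.54) and *CATHL2* by 1.33 (SE 0.57). The cathelicidin mean ran from -0.14 to 1.71 in LN and from -1.37 to 0.30 in HN, and its deviations had an r of 0.95 with *PGLYRP1*, 0.83 with *MPO* and -0.19 with *LTF*.

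Of 21 detected other genes of neutrophil granules, 16 had a higher and 5 a lower mean in LN, with a median of 0.13. *CAMP*, which that list shares with the cathelicidins, was the only one with an unadjusted p below 0.05. *HP* differed by 0.76 (SE 0.60), *TCN1*, a vitamin B12-binding protein of secondary granules, by 0.75 (SE 0.53), and *FCN1*, a ficolin, by -1.01 (SE 0.60). Without L1, *HP* was at 0.30 and *TCN1* at 0.44, without L10 *TCN1* was at 0.50, and without L3, *HP* was at 1.22 and *FCN1* at -0.44. The median of the list was 0.065 without L5 and 0.072 without L6. The mean of this list had an r of 0.96 with *S100A8*, 0.95 with *S100A9* and 0.18 with *LTF*.

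The list of neutrophil receptors, which also holds the enzyme *PADI4*, had 11 detected genes. Of these, 5 had a higher and 6 a lower mean in LN, with a median of -0.061 and none with an unadjusted p below 0.05. The median lay between -0.19 (without L2) and 0.14 (without L9, with 7 of 11 higher) when each fetus was left out. Without *PADI4*, a count made after the values were seen, 4 of 10 were higher and 6 lower, with a median of -0.091. The chemokine receptor *CXCR1* differed by 0.51 (SE 0.40; 0.92 without L5, 0.34 without L8 and 0.27 without L9) and *PADI4*, which citrullinates histones in neutrophils, by 0.40 (SE 0.23; 0.23 without L1). In the other direction, *FCGR3A* differed by -0.28 (SE 0.40), between -0.57 without L5 and -0.0046 without L9, and *TLR2* by -0.27 (SE 0.29), between -0.47 without L9 and -0.079 without L3. Some defining receptors were at or near background in these livers. *CXCR2* and *CSF2RB* were well above background on 0 arrays, *ITGAM* and *CD177* on 1, and *C5AR1* on 3.

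The listed transcription factors of granulocytes and their progenitors were likewise split, 7 of 13 higher and 6 lower in LN. Their median of 0.023 lay between -0.11 (without L6) and 0.11 (without L5) when each fetus was left out. *CEBPE* of this list was not detected, being well above background on 2 arrays. *MYB*, a factor of progenitors, differed by 0.77 (SE 0.35) and *RUNX1* by -0.71 (SE 0.22), the last with an unadjusted p below 0.05, beside 2.75% of detected genes in that direction. The mean of this list had an r of 0.83 with *ELANE* and 0.75 with *MPO*. Of the 6 NADPH oxidase subunits, which make the superoxide that feeds myeloperoxidase, 5 had a lower mean in LN, with a median of -0.14 and none with an unadjusted p below 0.05. That median lay between -0.30 (without L2) and -0.064 (without L3) when each fetus was left out.

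Of the cytokines of granulocyte formation, 7 of 12 were detected, 3 higher and 4 lower in LN, with a median of -0.0015 (-0.071 without L5 to 0.079 without L2). *CSF3*, the gene of granulocyte colony-stimulating factor, and *CSF2* were well above background on 0 arrays. *FLT3LG* differed by -0.43 (SE 0.13) with no overlap, where 1.56% of detected genes lay wholly lower in LN. *CXCL8* differed by 0.39 (SE 0.42), between 0.026 without L6 and 0.66 without L8. Of 13 acute phase proteins, 5 were higher and 8 lower, with a median of -0.061 (-0.12 without L3 to 0.0077 without L1). The largest difference was that of *SAA3* at 1.19 (SE 1.24), which ran from -0.039 without L3 to 2.03 without L10. *HP*, given above as a granule gene, was also higher in mean at 0.76. *LBP* differed by -0.73 (SE 0.44), and by -0.45 without L5 and -0.44 without L10, and *CRP* by -0.56 (SE 0.44), between -0.85 without L6 and -0.14 without L5.

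Markers of other blood cells were set beside these values. Of 11 detected erythroid markers 10 had a higher mean in LN, with a median of 1.14, and the mean of the list ran from -0.49 to 2.50 in LN and from -1.23 to 0.038 in HN. The fetus at 2.50 was L5, and without it the median was 0.36, with 8 of 11 higher. *HBM* differed by 1.83 (SE 1.11), *HBB* by 1.71 (SE 1.03) and *GATA1* by 1.64 (SE 0.77). Without L5 these were 0.68, 0.79 and 0.83, *HBB* was 0.93 without L1, and the *GATA1* probe was well above background on 5 of 8 arrays. The part of the erythroid cells in the granule gene values was not tested.

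Of 7 detected markers of eosinophils, basophils and mast cells 6 were higher in LN, with a median of 0.37 and list means of -0.052 to 0.73 in LN and -0.58 to 0.22 in HN. The mast cell protease genes *CPA3* and *TPSB2* differed by 0.81 (SE 0.29) and 0.58 (SE 0.35), and *GATA2* by 0.81 (SE 0.51). L5 was again the highest in the list mean, and without it *CPA3* was at 0.52, *TPSB2* at 0.27 and *GATA2* at 0.41. The median of the list was 0.65 without L3 and 0.20 without L10. All 7 detected progenitor markers were higher in LN, with a median of 0.34 and list means of -0.054 to 0.59 in LN and -0.46 to 0.15 in HN. The progenitor median was 0.22 without L5 and 0.17 without L10. Of 4 megakaryocyte markers 3 were higher, with a median of 0.10 that lay between -0.12 (without L2) and 0.35 (without L3) when each fetus was left out, and *PF4* differed by 1.02 (SE 0.35). The part of these cells was not tested.

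Monocyte and macrophage markers had a median of -0.045, with 4 of 12 higher and 8 lower in LN. That median lay between -0.24 (without L2, with 1 of 12 higher) and 0.065 (without L9, with 7 of 12 higher). Their mean ran from -0.34 to 0.14 in LN and from -0.48 to 0.33 in HN, and its r was -0.30 with *S100A8* and -0.39 with *S100A9*. The part of these cells in the calprotectin values was not tested. Of 12 lymphocyte markers 11 were lower in LN, with a median of -0.14 (-0.26 without L2 to -0.037 without L3), and *CD3E* differed by -0.45 (SE 0.21) and *CD247* by -0.45 (SE 0.17), the last with no overlap. *GZMB* differed by 0.35 (SE 0.26), and by 0.17 without L5 and 0.18 without L10.

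The hepatocyte markers and the endothelial and stellate markers had medians near 0, over genes that differed in both directions. All 12 matched hepatocyte markers were detected, with a median of 0.0058 and 7 of 12 higher in LN. That median lay between -0.0019 (without L3) and 0.039 (without L6, with 9 of 12 higher). *CPS1* differed by -0.59 (-0.30 without L2 to -0.88 without L3) and *AFP* by 0.34 (0.16 without L3 to 0.64 without L8). Endothelial and stellate markers had a median of 0.053 over 14 genes (-0.037 without L3 to 0.096 without L10), with 8 higher and 6 lower in LN. *COL1A1* and *COL1A2* differed by -0.46 each and *LRAT* by 0.38. Without L2 these were -0.14, -0.22 and 0.18. Proliferation markers had a median of -0.11 over 13 genes, 4 higher and 9 lower in LN. That median lay between -0.30 (without L5) and 0.13 (without L10, with 10 of 13 higher). The hepatocyte list mean stayed between -0.14 and 0.15 in every fetus.

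**Figure D5:**
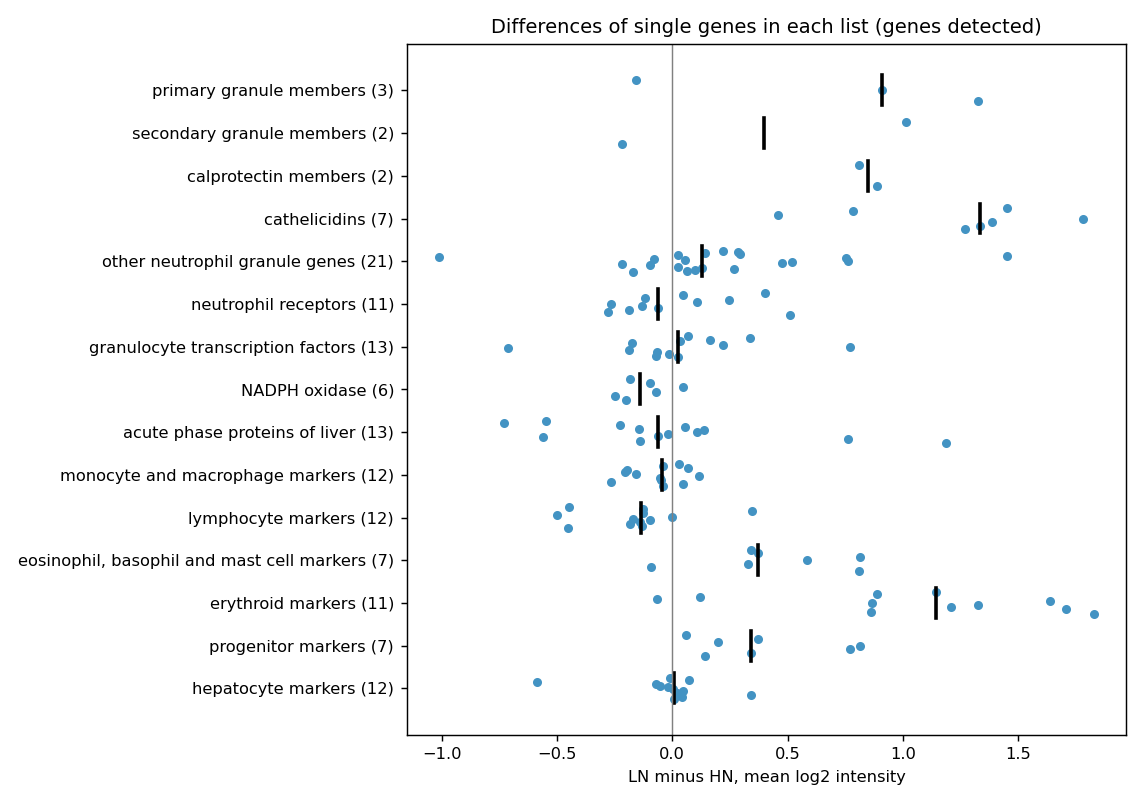
Difference between the LN and HN means (log2 intensity, horizontal axis) of each detected gene of the granule classes and of related lists (vertical axis, number of genes in parentheses), with a black bar at the median. The cathelicidins lie wholly to the right of 0, the erythroid markers nearly so, and the receptors, NADPH oxidase, monocyte and hepatocyte lists lie around 0.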

How the data were processed

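Fetal liver RNA of 4 LN and 4 HN calves was hybridized to Agilent bovine 1-colour arrays. The authors deposited spot intensity files from Agilent Feature Extraction 11.0.1.1, with background subtracted within the array, and a table of log2 values that, per their methods, GeneSpring GX had quantile normalized. The table holds 31068 probes, those well above background on all 8 arrays. The series text speaks of RNA pooled by group, whereas the labels give 1 fetus per array, and the labels were followed.

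Control spots were left out, as were spots marked as outliers, which removed 16 of 43653 probes. Log2 intensities were quantile normalized, and limma 3.58.1 (lmFit and eBayes, R 4.3.3) compared LN with HN over 33439 detected probes with Benjamini-Hochberg adjustment. This fit was tested on simulated data, with independent noise for each probe and no shared effect of fetus, slide or array. That test cannot vouch for the comparison of the diets, which cannot be told apart from slide and scan. Accessions of 26740 probes were matched to genes through a RefSeq table (ARS-UCD2.0), so probes with other identifiers were left unnamed. The brightest detected probe stood for a gene. P-values measure the spread between fetuses.

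The members and all lists (granule classes, cathelicidins, other granule genes, receptors, transcription factors, NADPH oxidase, cytokines, acute phase proteins and cell type markers) were chosen with earlier results of these data known. Named were all members, up to 4 genes per list with the largest difference or any without overlap, and the 5 genes most like each class, and genes close to single members were added. Some genes that this rule names are not reported here. The *PGLYRP1* class follows the usual human assignment. Alternatives were scaling to the 75th percentile, normexp (offset 50), the authors' log2 table, other filters on dim probes, slide position as a block, the mean over probes, eBayes with trend and robust settings, and leaving out each fetus.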

Additional observations from a re-analysis of the deposited data

Results flagged for a closer look

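In 9 of 186 sets of 4 values examined (each detected probe of a granule gene, each list gene that the naming rule picked, each list mean and the primary minus secondary score, per diet group), a single fetus stood apart by a gap above Dixon's critical value, and chance gives about 1 in 20. None of these was a granule gene. In the HN group, L3 stood apart for *TLR2* at 16.93 and for *HNF4A* at 14.53. L2 was low for *CBFB* at 5.39 and for *CRP* at 8.77. L10 was high for *FLT3LG* at 8.14, for *BIRC5* at 6.63 and for the mean centred level of the cytokines of granulocyte formation at 0.20. In the LN group, L5 was high for *CD38* at 8.90 and low for *CPS1* at 14.74.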

How the results depend on the processing

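The count of probes past an adjusted p of 0.05 in limma was 0 in every setting except without L6 of LN, where it was 1, *TFF2*, a gene outside the rule for named genes (adjusted p 0.0488), so that leaving out each fetus gave 0 to 1. The unadjusted count ran from 1343 without L10 to 2963 with no filter on dim probes. The count of related list genes past an adjusted p of 0.05 was 0 in all settings. The primary median ran from 0.71 to 1.18 over all alternatives. The differences of *MPO*, *ELANE*, *PGLYRP1*, *S100A8* and *S100A9* kept their sign under every alternative, and those of *BPI* (-0.54 to 0.20) and *LTF* (-0.57 to 0.080) did not. The secondary median was 0.85 with *S100A8* and *S100A9* added. The median over all detected genes moved by less than 0.1 under the alternatives for scaling, background, values and filter, from -0.023 to 0.011. No paired analysis was possible because the groups share no replicate number and nothing ties a fetus of one group to a fetus of the other. With the position of the array on the slide as a block, which sets arrays of both groups side by side, 0 probes passed the adjusted p and 1672 the unadjusted one. With 4 arrays per group, the number of arrays limits the precision, and dim probes (the second *BPI* probe and *RUNX1*, each well above background on 4 arrays, and *GATA1* on 5) more so.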
